A study of Mus musculus with 4 samples.

Results

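The 10 genes described here encode prothymosin alpha (*Ptma*), 5 high mobility group (HMG) proteins (*Hmgb1*, *Hmgb2*, *Hmgn1*, *Hmgn2* and *Hmga1*) and 4 acidic histone chaperones (*Set*, *Nap1l1*, *Anp32b* and *Anp32e*). They were found by symbol among the 24421 genes listed, and all 10 were listed. Members were chosen by measured values of these samples: *Ptma* because the study had named it as differentially expressed here, and the others by protein class, as abundant chromatin proteins in these samples, which *Hmga1* was not. For this reason the levels and genotype differences of the members are given as a description, and counts of members past a threshold are given only beside the share of all genes. RNA-seq was carried out on CD69+CD4+CD8+ (CD69+DP) thymocytes, FACS-sorted from the thymus of 6 week old mice on a C57BL/6 background, in 2 samples per group. Samples came from different mice, sorted independently, and as 2 mice of each genotype entered a sort, it is not stated whether a sample is 1 mouse or a pool. Both groups carry Foxa1fl/flFoxa2fl/fl, the floxed alleles of both genes. The Foxa1/2cKO group also carries CD4Cre, a Cre recombinase driven by the *Cd4* promoter, which deletes the floxed genes from the DP stage onwards, and the control group is CD4Cre-. Levels were given as FPKM, in which fragments are divided by gene length and by the sample's depth, so they can be set side by side between genes.

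Prothymosin alpha is a small, very acidic nuclear protein that binds linker histone H1, and it is also known as an inhibitor of apoptosome formation. HMGB proteins bend DNA, and HMGB1 and HMGB2 assist the RAG recombinase during V(D)J recombination, which takes place in DP thymocytes. HMGN proteins bind nucleosomes and compete with linker histones, while SET, NAP1L1 and the ANP32 proteins carry or remove histones. SET and ANP32A, whose gene is a paralog described below, sit in one complex, the SET complex. Many of these genes are strongly transcribed in dividing cells.

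The sequence upstream of the start site is shown for 3 members whose levels followed different courses in the samples described below: *Ptma*, which differed alike in both Foxa1/2cKO samples, *Hmgb2*, which was low in one of them, and *Anp32e*, which lay between. Each line gives the 250 bases before a start annotated for the gene, 5′ to 3′ on the plus strand, from RefSeq on GRCm38.p6 (the assembly of mm10), with motif matches on either strand in capitals. The last bases of the *Anp32e* window lie within the span given for the gene below, which begins at an earlier start.
Ptma (chr1:86526307-86526556): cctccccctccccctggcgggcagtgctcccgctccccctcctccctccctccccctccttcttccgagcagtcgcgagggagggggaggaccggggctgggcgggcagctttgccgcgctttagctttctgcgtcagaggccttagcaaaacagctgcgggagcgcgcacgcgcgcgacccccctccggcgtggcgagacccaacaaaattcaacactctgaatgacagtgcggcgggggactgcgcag
Hmgb2 (chr8:57511593-57511842): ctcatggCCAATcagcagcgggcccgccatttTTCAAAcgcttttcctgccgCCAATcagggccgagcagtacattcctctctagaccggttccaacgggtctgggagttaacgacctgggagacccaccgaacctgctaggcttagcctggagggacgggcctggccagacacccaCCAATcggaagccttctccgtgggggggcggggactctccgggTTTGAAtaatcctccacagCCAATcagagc
Anp32e (chr3:95929007-95929256): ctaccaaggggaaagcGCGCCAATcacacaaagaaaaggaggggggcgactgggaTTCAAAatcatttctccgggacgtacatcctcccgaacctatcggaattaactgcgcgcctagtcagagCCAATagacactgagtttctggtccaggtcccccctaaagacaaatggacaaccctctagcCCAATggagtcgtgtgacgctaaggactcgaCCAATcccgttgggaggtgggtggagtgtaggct
The motifs searched were the E-box (CACGTG), the box named for its letters CCAAT, an E2F core spelled TTCCCGC, a second E2F core spelled TTGGCGC, the cell cycle homology region spelled TTTGAA, and the forkhead core spelled TGTTTAC. The TTGGCGC match of *Anp32e* overlaps its first CCAAT match. *Hmgb2* and *Anp32e* each held 4 CCAAT matches, and *Ptma* held none of the 6 motifs. *Hmgn1*, which differed alike in both Foxa1/2cKO samples, held 2 CCAAT matches, and *Hmgn2*, low mainly in Foxa1/2cKO 2, held 0. Over all upstream windows of the 10 members, some of which have 2 starts, CCAAT was found for 7 genes (*Anp32b*, *Anp32e*, *Hmgb1*, *Hmgb2*, *Hmgn1*, *Nap1l1* and *Set*), CACGTG for 4 (*Anp32b*, *Hmgb1*, *Hmgn2* and *Set*) and TTTGAA for 3 (*Anp32e*, *Hmgb2* and *Set*). Of the 32851 annotated windows of the same length, 33.8% held CCAAT, 6.02% held CACGTG and 16.0% held TTTGAA. The forkhead core was found for 0 of the 10 members and in 3.17% of all windows. TTCCCGC was found for 1 member, *Nap1l1*, and TTGGCGC for 1, *Anp32e*, against 3.82% and 1.97% of all windows. Member counts are per gene, over up to 2 windows, while the shares of all windows are per single window. The windows of members held 54.0% to 79.6% GC, against a median of 52.4% over all windows. The sets are thus unlike, and no enrichment is read from the counts.

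The totals by which the FPKM had been divided, read from the steps between low values, ranged from 10796528 to 14968316 reads per sample. *Foxa1* and *Foxa2* were listed at 0 in all 4 samples, so these values do not check the genotype labels. The markers of DP thymocytes were high in every sample, with a summed FPKM over 8 genes of 2440 and 2490 in the control pair, 2520 for Foxa1/2cKO 1 and 3150 (128% of the control mean) for Foxa1/2cKO 2. The markers of B cells summed to 50.3 to 104 over 5 genes, those of myeloid cells to 13.8 to 28.9 over 6, and those of thymic epithelium to 3.18 to 4.18 over 5. Of the 6 erythroid markers, the 4 globin genes were listed at 0 in every sample. The 16 cycling markers set Foxa1/2cKO 2 apart from the other samples, since their summed FPKM of 885 and 935 in the control pair compared with 967 for Foxa1/2cKO 1 and 378 for Foxa1/2cKO 2. The sum in Foxa1/2cKO 2 was 41.5% of the control mean, and the sum in Foxa1/2cKO 1 was 106%. *Top2a*, a topoisomerase of dividing cells, was at 144, 153, 179 and 51.4 FPKM in the same order. In bulk RNA, fewer cells of a type and less RNA per cell cannot be told apart.

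Levels of the members spanned a wide range. *Ptma* was the highest, at rank 103 of the listed genes by mean FPKM. It was followed by *Anp32b* (rank 217), *Hmgn2* (281), *Hmgn1* (431), *Hmgb1* (484), *Anp32e* (523), *Hmgb2* (789), *Set* (945) and *Nap1l1* (1680). *Hmga1* was not abundant, at rank 9897. *Ptma* lay above *Anp32b* in all 4 samples without overlap, by 1.85-fold between control means, and *Set* lay above *Nap1l1*, and *Nap1l1* above *Hmga1*, without overlap. The other neighbours from *Anp32b* down to *Set* overlapped over the 4 samples, and even within the controls *Hmgn1*, *Hmgb1* and *Anp32e* were not separated. The 10 genes together summed to 1430 and 1520 FPKM in the control pair, with 1300 for Foxa1/2cKO 1 and 1030 for Foxa1/2cKO 2. *Ptma* made up 28.2% and 28.1% of this sum in the control pair, 25.8% of it for Foxa1/2cKO 1 and 32.0% for Foxa1/2cKO 2.

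**Figure D1:**
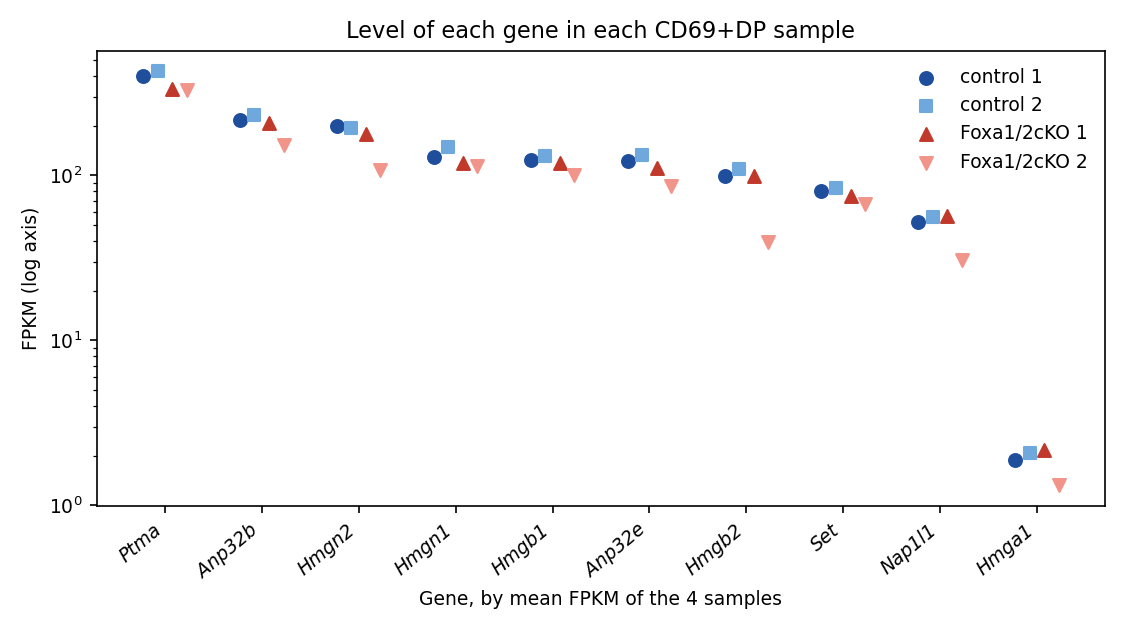
FPKM of the 10 members on a log axis, with 1 point for each of the 4 samples. The Foxa1/2cKO 2 point is the lowest for all 10 genes, with *Ptma* at 335 and 330.0 in the Foxa1/2cKO samples and *Hmgb2* at 98.7 and 39.3.

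*Ptma* (chromosome 1 of mm10, 86526557 to 86530712) stood at 402 and 427 FPKM in the control pair, and at 335 (sample 1) and 330.0 (sample 2) in the Foxa1/2cKO pair. Both Foxa1/2cKO samples lay below both controls, and they differed from each other by less than the controls did. The control mean was 414.5 ± 17.8 FPKM and the Foxa1/2cKO mean 332.5 ± 3.57 (SD, n = 2 each), so Foxa1/2cKO 1 was at 80.8% and Foxa1/2cKO 2 at 79.6% of the control mean. These values rest on 4312 to 7171 reads per sample, for which counting error alone is 1.18% to 1.52%. On the scale of log2(FPKM + 1), used for all fold changes here, the difference between the genotypes was -0.31 for Foxa1/2cKO 1 and -0.33 for Foxa1/2cKO 2, or -0.32 over both, with a standard error (SE) of 0.09. The parathymosin gene *Ptms*, which encodes a related acidic protein, had control values of 139.7 and 140.2 FPKM and Foxa1/2cKO values of 127 (sample 1) and 109 (sample 2). Its ratio to *Ptma* lay between 0.328 and 0.379 in all samples. Its own log2 fold change was -0.25 (SE 0.11), or -0.14 without Foxa1/2cKO 2.

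The HMGB genes encode the DNA-bending HMG box proteins. *Hmgb1* (chromosome 5, 149046702 to 149053057) gave 124 and 131 FPKM in the control pair, with 118 for Foxa1/2cKO 1 and 99.97 for Foxa1/2cKO 2. The groups did not overlap, but Foxa1/2cKO 1 lay close to control 1. The log2 fold change was -0.23 (SE of 0.11), and -0.10 without Foxa1/2cKO 2. *Hmgb2* (chromosome 8, 57511843 to 57515999) measured 98.9 and 109.5 FPKM in control cells, against 98.7 and 39.3 in Foxa1/2cKO samples 1 and 2. Foxa1/2cKO 1 lay below control 1 by a margin within counting error (1.58% to 2.92%), while Foxa1/2cKO 2 was at 37.7% of the control mean. The log2 fold change, -0.73 (SE 0.44), was -0.08 without Foxa1/2cKO 2. The ratio of *Hmgb2* to *Hmgb1* stood at 0.797 and 0.838 in the control pair, at 0.834 for Foxa1/2cKO 1 and at 0.393 for Foxa1/2cKO 2. A low ratio was therefore seen in 1 of the 2 Foxa1/2cKO samples, the one in which the cycling markers were also low. The part of those markers in the *Hmgb2* difference was not tested.

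The HMGN genes encode nucleosome-binding proteins. *Hmgn1* (chromosome 16, 96121588 to 96127725) had control values of 130.0 and 149 FPKM and Foxa1/2cKO values of 118 (sample 1) and 114 (sample 2). Both Foxa1/2cKO samples lay below both controls and close to each other, at 84.9% and 81.8% of the control mean, while the controls were 0.19 apart on the log2 scale. The log2 fold change was -0.26 (SE 0.10) and lay from -0.35 to -0.16 on leaving out any 1 sample. *Hmgn2* (chromosome 4, 133964739 to 133967991) gave 199 and 194.5 FPKM in the control pair, with 177 for Foxa1/2cKO 1 and 108.5 for Foxa1/2cKO 2. Its groups did not overlap, but Foxa1/2cKO 1 was at 90.2% and Foxa1/2cKO 2 at 55.2% of the control mean. The log2 fold change of -0.50 (SE 0.24) became -0.15 without Foxa1/2cKO 2. The ratio of *Hmgn2* to *Hmgn1* was 1.53, 1.31 and 1.5 in the controls and Foxa1/2cKO 1, and 0.951 in Foxa1/2cKO 2.

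*Hmga1* encodes an AT-hook protein that binds the minor groove of AT-rich DNA. It lies on chromosome 17 (27556574 to 27563672) and measured 1.89 and 2.09 FPKM in control cells, against 2.17 and 1.32 in Foxa1/2cKO samples 1 and 2. The groups overlapped, the log2 fold change of -0.14 (SE 0.21) turned to 0.09 without Foxa1/2cKO 2, and the values rest on 30 to 58 reads, for which counting error is 13.1% to 18.3%. How reads that match several genes were treated is not given in the sources used here, and the level of *Hmga1* is uncertain for this reason too.

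*Set* and *Nap1l1* encode chaperones that share the NAP fold. *Set* (chromosome 2, 30061996 to 30072577), whose product also inhibits the phosphatase PP2A, had control values of 80.9 and 83.96 FPKM and Foxa1/2cKO values of 75.5 (sample 1) and 66.8 (sample 2). The groups did not overlap, and the log2 fold change was -0.21 (SE 0.10) and -0.12 without Foxa1/2cKO 2. *Nap1l1* (chromosome 10, 111472882 to 111498150), a chaperone of H2A and H2B, gave 52.0 and 56.3 FPKM in the control pair, with 56.4 for Foxa1/2cKO 1 and 30.8 for Foxa1/2cKO 2. Foxa1/2cKO 1 lay just above both controls, and Foxa1/2cKO 2 was at 56.9% of the control mean. Its log2 fold change of -0.37 (SE 0.29) turned to 0.06 without Foxa1/2cKO 2. The paralog *Nap1l4* measured 108 and 112 FPKM in control cells, against 96.4 and 109 in Foxa1/2cKO samples 1 and 2, and so did not share the low value of *Nap1l1* in Foxa1/2cKO 2.

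The ANP32 proteins are acidic leucine-rich repeat proteins, and ANP32E removes the histone variant H2A.Z from nucleosomes. *Anp32b* (chromosome 4, 46450926 to 46472657) had control values of 217 and 233 FPKM and Foxa1/2cKO values of 208 (sample 1) and 153 (sample 2). *Anp32e* (chromosome 3, 95929245 to 95947387) gave 123 and 133 FPKM in the control pair, with 111 for Foxa1/2cKO 1 and 86.6 for Foxa1/2cKO 2. Neither gene overlapped between the groups, and in both the lowest sample was Foxa1/2cKO 2. The log2 fold changes were -0.33 (SE 0.17) for *Anp32b* and -0.38 (SE 0.14) for *Anp32e*. Without Foxa1/2cKO 2 they were -0.11 and -0.20. The ratio of *Anp32e* to *Anp32b* hardly varied, from 0.534 to 0.570 over the 4 samples.

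Over the 10 members, the mean was lower in Foxa1/2cKO for all 10, and both Foxa1/2cKO samples lay below both controls for 8, the exceptions being *Hmga1* and *Nap1l1*. Of the 10776 genes tested, 48.7% had a lower mean in Foxa1/2cKO and 17.8% lay below both controls in both Foxa1/2cKO samples. Nothing is read from these counts, since *Ptma* was chosen through this comparison and the other members with earlier results of these data known. The median log2 fold change was -0.32 over the members and 0.01 over all genes tested. With limma and Benjamini-Hochberg adjustment over all genes tested, 0 of the 10 had an adjusted p under 0.05, against 0.00928% of the genes tested, and 1 had an unadjusted p under 0.05, against 4.55% of the genes tested (2.15% lower and 2.39% higher). With 2 samples in each group, 0.333 is the smallest two-sided p that an exact permutation test allows. The study had instead tested read counts with DESeq2 and re-estimated the null variance. Its calls, *Ptma* among them, thus rest on another measure and test and are not checked by these numbers.

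The size of the difference depended on the sample. Without Foxa1/2cKO 2 the median over the members was -0.12, and 8 of the 10 were lower in the mean of the remaining sample (52.1% of all genes), all but *Nap1l1* and *Hmga1*. All 10 were lower without control 1 (median -0.37, and 49.7% of all genes) and without control 2 (median -0.28, and 48.9% of all genes). Without Foxa1/2cKO 1 the median was -0.46, and all 10 were lower (46.1% of all genes). In that fit limma gave 8 members an adjusted p under 0.05, all but *Hmgn1* and *Hmga1*, against 25.4% of all genes, and without Foxa1/2cKO 2 it gave 0 members and 0.224% of all genes such a p. The lone Foxa1/2cKO sample of these fits is assumed to vary like the controls. Without Foxa1/2cKO 1 that lone sample is Foxa1/2cKO 2, in which the cycling markers were low. The members were also chosen with earlier results of these data known. Nothing is therefore read from the member counts of these fits beside the shares of all genes. Comparing the 2 Foxa1/2cKO samples directly, all 10 members were lower in Foxa1/2cKO 2, with a median difference of -0.40, as were 46.2% of all genes tested, which had a median difference of 0.03. All 16 cycling markers were also lower in Foxa1/2cKO 2 than in Foxa1/2cKO 1, with a median difference of -1.38. Their median log2 fold change between the genotypes was -0.60 with all samples and 0.01 without Foxa1/2cKO 2. *Ptma* and *Hmgn1* differed from the rest in that Foxa1/2cKO 1 lay nearly as far below the controls as Foxa1/2cKO 2 did, with differences between the Foxa1/2cKO samples of -0.02 and -0.05. At the other end were *Hmgb2* (-1.31), *Nap1l1* (-0.85) and *Hmgn2* (-0.70). The part of the cycling markers in these differences was not tested.

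**Figure D2:**
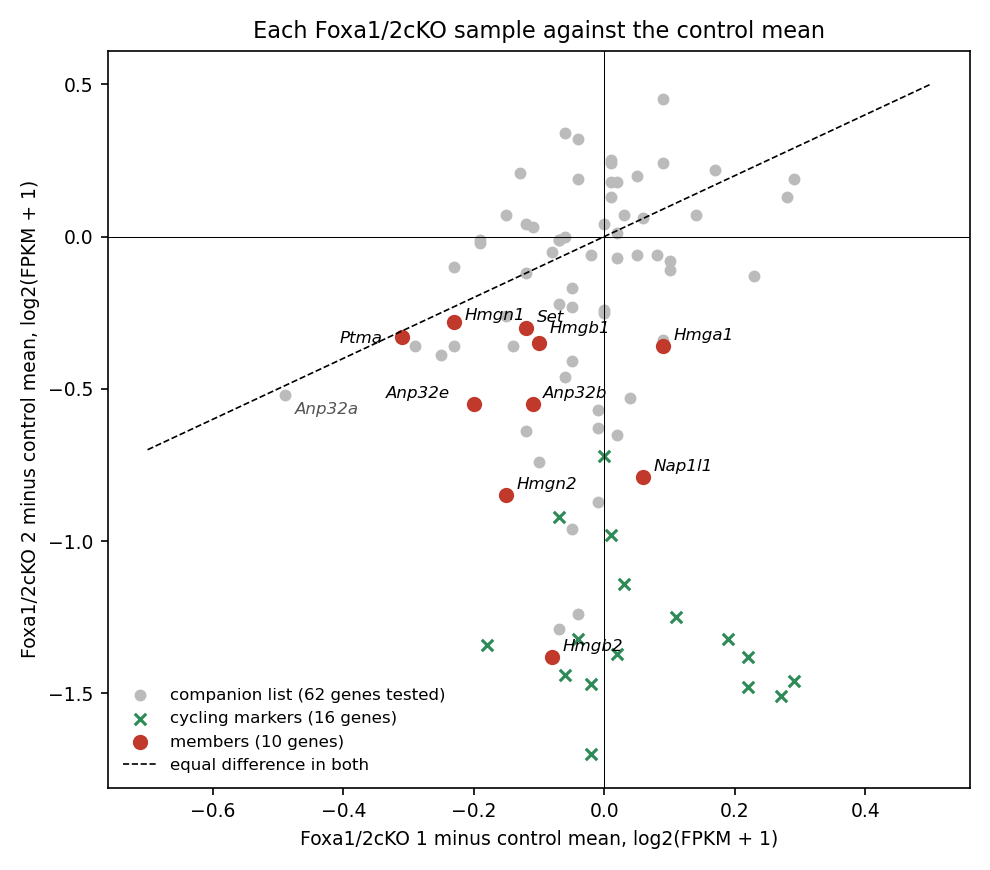
Difference of each Foxa1/2cKO sample from the control mean in log2(FPKM + 1), Foxa1/2cKO 1 on the horizontal and Foxa1/2cKO 2 on the vertical axis, for members (red), companion genes (grey) and cycling markers (green crosses), with a dashed line of equal difference. *Ptma* (-0.31 and -0.33), *Hmgn1* and the paralog *Anp32a* (-0.49 and -0.52) sit near the line, and *Hmgb2* (-0.08 and -1.38) sits among the cycling markers.

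The other members of these families were taken from a list of paralogs, of which 17 were listed and 10 passed the filter on low values (1 FPKM or more in 2 or more samples). Of the 10, 7 had a lower and 3 a higher mean in Foxa1/2cKO (48.7% of all genes tested had a lower one). Their median log2 fold change was -0.12. In limma's fit, 0 of them reached an adjusted p of 0.05 (Benjamini-Hochberg), against 0.00928% of the genes tested. An unadjusted p under 0.05 was reached by 1 of them, against 4.55% of the genes tested. *Anp32a*, which encodes a further SET complex protein and PP2A inhibitor (chromosome 9, 62341343 to 62378804), differed most. It measured 137 and 139 FPKM in control cells, against 97.8 and 96.2 in Foxa1/2cKO samples 1 and 2. Its groups were well apart, at 138.2 ± 1.57 and 97.0 ± 1.18 FPKM (SD, n = 2 each). The log2 fold change was -0.51 (SE 0.08, limma's unadjusted p = 0.00175 and Benjamini-Hochberg adjusted p = 0.863). On leaving out any 1 sample it lay from -0.52 to -0.49. Its adjusted p from limma (Benjamini-Hochberg) was 0.848 or more in every setting with all 4 samples. Fits with 1 sample in a group take their spread from the other group alone, so their p-values for this gene are left out.

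Among the other paralogs, *Ptms* and *Hmgb3* also lay below both controls in both Foxa1/2cKO samples, as did 17.8% of all genes tested. *Hmgb3* had control values of 9.85 and 11.1 FPKM and Foxa1/2cKO values of 8.76 (sample 1) and 7.92 (sample 2), that is -0.29 on the log2 scale (SE 0.11), with limma's unadjusted p of 0.0526 and adjusted p of 0.863. The nucleosome-binding gene *Hmgn5* (-0.44, SE 0.30) was low in Foxa1/2cKO 2, at 8.89 FPKM against 16.3 to 18.0 in the other samples, and its fold change was -0.01 without that sample. *Hmgn3* (-0.14, but 0.03 without control 1), *Nap1l4* (-0.10) and *Tspyl2* (-0.10) differed by about their SEs. *Tspyl1* (0.14, but -0.04 without Foxa1/2cKO 2), *Tspyl3* (0.13, but 0.01 without Foxa1/2cKO 2) and *Tspyl4* (0.17, but 0.09 without it), of the NAP-related TSPY-like family, had higher means in Foxa1/2cKO. The genes that did not pass the filter, among them *Hmga2*, *Hmgb4*, *Nap1l2*, *Nap1l3*, *Nap1l5* and *Tspyl5*, had at most 4 reads in any sample.

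**Figure D3:**
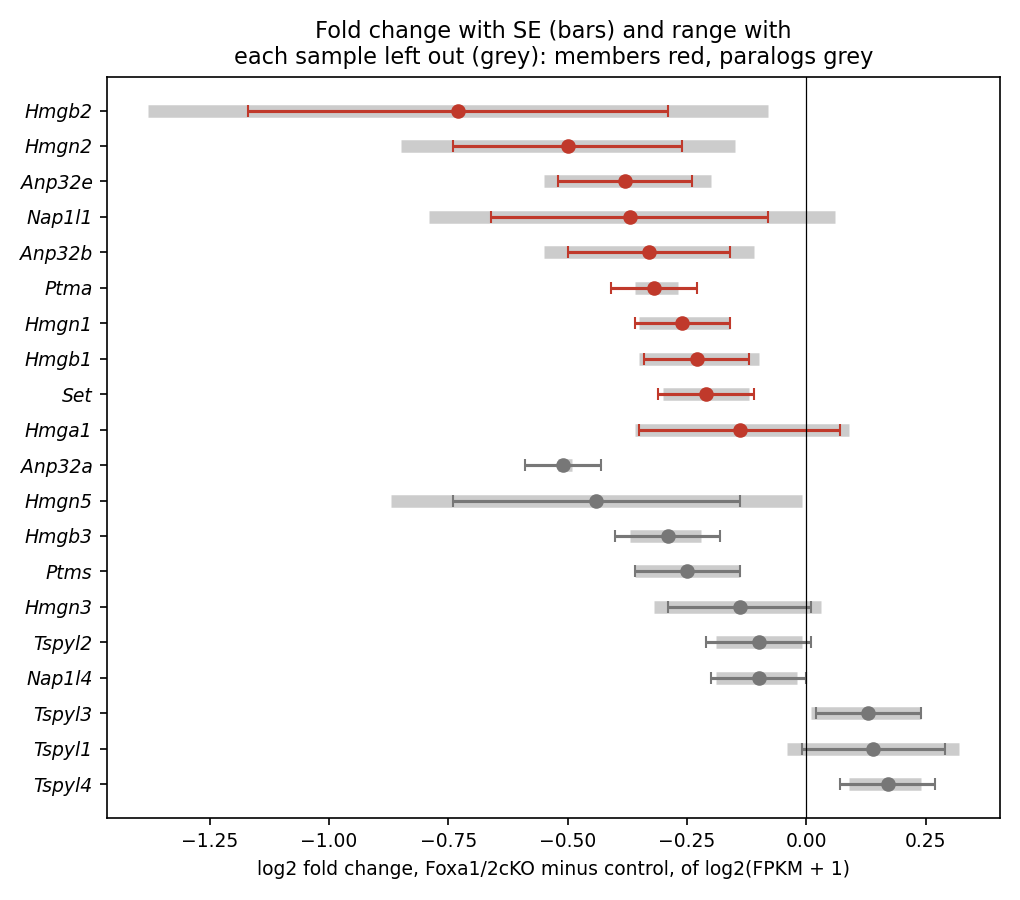
Log2 fold change between Foxa1/2cKO and control on log2(FPKM + 1) for the 10 members (red) and the 10 tested paralogs (grey points), with SEs as bars and the range with each sample left out as grey bands. The band is narrow for *Anp32a* (-0.52 to -0.49) and *Ptma* (-0.36 to -0.27) and wide for *Hmgb2* (-1.38 to -0.08) and *Nap1l1* (-0.79 to 0.06).

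The wider companion list held 69 genes, among them other histone chaperones, partners of the SET complex, partners of prothymosin and the enzymes that place H2A.Z, of which 62 were tested. Of the 62, 39 had a lower and 23 a higher mean in Foxa1/2cKO (48.7% of all genes had a lower one), 15 lay below and 7 above both controls in both Foxa1/2cKO samples (17.8% and 18.9% of all genes), and 0 reached an adjusted p of 0.05 in limma's fit (Benjamini-Hochberg). An unadjusted p below that threshold was found for 3, against 4.55% of all genes (2.15% lower), and all 3 were lower: *Anp32a*, the nucleoside diphosphate kinase gene *Nme1* and the nucleolin gene *Ncl*, of which *Nme1* and *Ncl* are named after their values were seen. *Nme1*, whose product is a nuclease of the SET complex, averaged 88.2 ± 5.44 FPKM over controls against 70.3 ± 2.45 over Foxa1/2cKO samples (SD, n = 2 each), which is -0.32 on the log2 scale (SE 0.09, limma's adjusted p = 0.863). The median of the companion list was -0.04.

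The lowest fold changes outside the paralogs were those of *Chaf1a* (-0.68) and *Chaf1b* (-0.42), subunits of the replication-coupled chaperone CAF-1, of *Asf1b* (-0.64), an H3-H4 chaperone, and of *H2afz* (-0.50), which encodes H2A.Z. All of them were low in Foxa1/2cKO 2. *H2afz* gave 133 and 143 FPKM in the control pair, with 133 for Foxa1/2cKO 1 and 70.3 for Foxa1/2cKO 2. *Chaf1a* stood at 18.6 and 18.9 FPKM in the control pair, at 17.7 for Foxa1/2cKO 1 and at 7.06 for Foxa1/2cKO 2. Without Foxa1/2cKO 2 the fold changes were -0.07 for *Chaf1a*, -0.04 for *Asf1b*, -0.05 for *H2afz* and -0.10 for *Chaf1b*, and the part of the cycling markers, low in the same sample, was not tested. Over the 26 other histone chaperones, 19 had a lower and 7 a higher mean in Foxa1/2cKO, with a median of -0.12 that was -0.04 without Foxa1/2cKO 2 and -0.20 without Foxa1/2cKO 1. Over the 10 genes of H2A.Z and its exchange complexes 7 were lower and 3 higher, with a median of -0.03 that turned to 0.01 without Foxa1/2cKO 2. The highest fold changes were those of *Ubn1* (0.27) and *Atrx* (0.21), of the chaperone complexes that place H3.3, of *Apaf1* (0.24), the apoptosome scaffold, and of *Spty2d1* (0.19). *Ubn1* was at 0.09 without Foxa1/2cKO 2 and 0.45 without Foxa1/2cKO 1, and *Atrx* at 0.13 without Foxa1/2cKO 1 and 0.11 with length correction. *Apaf1* measured 12.5 and 13.0 FPKM in control cells, against 15.8 and 14.7 in Foxa1/2cKO samples 1 and 2, with limma's unadjusted p of 0.0543 and adjusted p of 0.863. Of the 8 prothymosin partners, 2 had a lower and 6 a higher mean in Foxa1/2cKO. Their median of 0.05 turned to -0.01 without control 2. The list of the SET complex and its partners held 8 genes, PP2A subunits and granzyme A among them. Of these, 4 were lower and 4 higher, with a median of 0.00. *Set* and *Anp32a* are not in that list, being counted with the members and the paralogs. Beside the counts of each list, 48.7% of all genes tested had a lower mean.

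Several members share sequence with other annotated genes, processed pseudogenes among them, which bears on how well their reads can be placed. Taking windows of 50 bases along the longest annotated transcript, 40.9% were held by another annotated gene for *Hmgb1*, 37.6% for *Set*, 27.8% for *Ptma*, 25.6% for *Nap1l1*, 22.5% for *Hmgn2* and 21.9% for *Hmgb2*. The share was 12.1% for *Anp32b*, 6.54% for *Hmgn1* and 0 for *Anp32e*. For *Hmgb1* the windows were found in 133 other genes, 129 of them pseudogenes. For *Nap1l1* they were found in 35, of which 4 are pseudogenes, and the pseudogene *Gm4204* held 24.9%. For *Hmgn2* they were found in 15, of which 14 are pseudogenes, and *Gm10282*, annotated as protein coding, held 22.5%. For *Anp32a* the share was 5.47%. The longest transcript can exceed the length recovered along with the reads, at 2159 against 1254 bases for *Hmgn2* and 3934 against 2047 for *Nap1l1*. The shares are therefore not those of the sequence behind the FPKM.

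**Figure D4:**
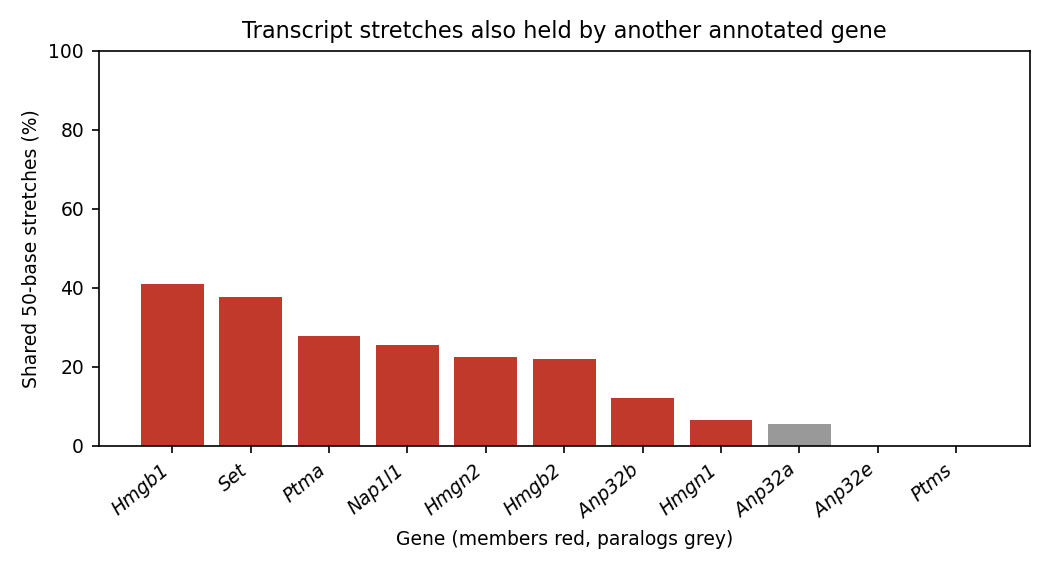
Share of windows of 50 bases along each gene's longest annotated transcript (percent, bars from 0) that another annotated gene also holds, for 9 members (red) and the paralogs *Anp32a* and *Ptms* (grey). Of the genes shown, *Hmgb1* stands highest at 40.9% (*Hmga1* is left out), and *Anp32e* and *Ptms* are at 0.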

How the data were processed

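RNA-seq was analysed in 4 samples of CD69+DP thymocytes, 2 control and 2 Foxa1/2cKO. The authors aligned the reads in BaseSpace (mm10, RefSeq annotation) and used HTSeq's union mode for counting, and the submitters' processing notes name TopHat, Picard and DESeq2. The deposited values are FPKM per gene and sample, and the step from reads to FPKM is not given in the sources used here. Reads of a gene were recovered from the steps between its values, taking the whole-number solution closest to its annotated length.

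Genotypes were compared with limma 3.58.1 (R 4.3.3) on log2(FPKM + 1), with a mean-variance trend, over the 10776 genes at 1 FPKM or more in 2 or more samples, at a Benjamini-Hochberg adjusted p of 0.05. Fold changes on this scale understate those of low genes. The fit was tested on simulated data, with a common spread taken from the controls and an equal shift in both Foxa1/2cKO samples for the changed genes. That test does not cover a Foxa1/2cKO sample that departs from the other, as Foxa1/2cKO 2 did here. The p-values set the genotype difference against the spread between samples within the groups, moderated over all genes tested. In a fit with 1 sample in a group, that spread comes from the other group alone. Alternatives were a pseudocount of 0.1, no filter, upper-quartile scaling, a replicate block, a length correction (loess on the exon length in GENCODE M21) alone and with the block, a threshold of 0.1 and leaving out each sample. Members and lists were chosen with earlier results of these data known. Named were the members, *Foxa1*, *Foxa2*, the paralogs, the 4 companion genes per direction with the largest fold change, the markers and the 3 genes most like *Ptma*. Figures were drawn with matplotlib 3.10.9 in Python 3.11.15. Exon usage was not analysed here, and the sequence shared by *Hmga1* is not reported here.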

Additional observations from a re-analysis of the deposited data

How the results depend on the processing

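The number of genes with an adjusted p under 0.05 (limma, Benjamini-Hochberg) was 1, and it was 0 with a pseudocount of 0.1 (477 with an unadjusted p under 0.05) and 0 with no filter on low values (802 unadjusted). It was 1 with a replicate block (378 unadjusted) and 2 with the block and length correction (383 unadjusted). On leaving out 1 sample it ran from 0 to 2695: 0 without control 1 (116 unadjusted), 0 without control 2 (61 unadjusted), 24 without Foxa1/2cKO 2 and 2695 without Foxa1/2cKO 1. With another pseudocount, upper-quartile scaling or length correction the fold changes of the 10 members stayed negative. A replicate block (-0.32) or no filter cannot move them in this design. Their median of -0.32 was -0.30 with length correction, and ran from -0.46 to -0.12 on leaving out 1 sample. Same-numbered samples were not treated as pairs, since no label ties a number to a sort. The correlation of their deviations was -0.0587, which with 2 samples per group cannot show whether they shared a sort. The replicate block gave 0 members or companion genes an adjusted p under 0.05, as did the other settings with all 4 samples. The companion median of -0.04 was -0.07 with length correction, alone or with the block, and ran from -0.07 to -0.03 on leaving out 1 sample. The fold change of *Hmgn3* turned to 0.03 without control 1 and that of *Tspyl1*, 0.32 without Foxa1/2cKO 1, to -0.04 without Foxa1/2cKO 2. The cause of these shifts was not tested. Log2 fold changes rose weakly with gene length across the genes tested (Spearman's rho of 0.147, genes not being independent), and the correction brought this to -0.00882. Depth limits *Hmga1* most among the members, and the intervals of counting error cover no other error.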

Other observations

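Among the 625 tested genes with a mean of at least 100 FPKM that are not members, the 3 whose pattern over the 4 samples lay closest to that of *Ptma* were *Rpl29*, *Snrpd3* and *Bin2*. The measure is the root mean square distance of log2(FPKM + 1) centred on each gene's mean, which was 0.042, 0.045 and 0.048 for them and 0.190 for the median gene. *Rpl29*, a ribosomal protein gene, had control values of 265.5 and 271 FPKM and Foxa1/2cKO values of 230.3 (sample 1) and 219.8 (sample 2). *Snrpd3*, which encodes a core snRNP protein, was at 112 and 119.5, 89.6 and 85.4. *Bin2*, a BAR domain gene, was at 112 and 122, 99.6 and 100.2. The likeness rests on 4 samples and is a description.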
